A study of Mus musculus with 12 samples.

Results

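The genes described here encode the receptors for the monoamines serotonin, dopamine, noradrenaline and histamine and for acetylcholine. They were the rows of the deposited count table whose gene symbol follows the naming pattern of the Htr, Drd, Adra, Adrb, Hrh, Chrm and Chrn families. There were 40 such rows among 14909, namely 12 serotonin, 5 dopamine, 9 adrenergic, 3 histamine, 4 muscarinic and 7 nicotinic receptor genes. RNA sequencing was done on frontal cortex of Upf3b-null mice (KO, 5 libraries, from mice 1, 2, 3, 4 and 6) and of wild-type mice (WT, 7 libraries, from mice 1 to 7), all of the C57BL/6 strain and 1 library per mouse. The sources used here give neither age nor sex, nor the design of the null allele or the substrain. The series set Upf3b-null frontal cortex against wild type to find the genes whose expression differs between them. UPF3B takes part in nonsense-mediated mRNA decay, which degrades transcripts with premature stop codons.

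Monoamine and acetylcholine receptors set how cortical neurons respond to fibres that arrive from the brainstem, hypothalamus and basal forebrain. Most are G protein-coupled receptors: Gs raises cAMP, Gi lowers it, and Gq activates phospholipase C. The nicotinic receptors, and the serotonin receptor encoded by Htr3a, are instead ion channels assembled from several subunits. In bulk tissue, fewer cells of a type and less RNA per cell cannot be told apart.

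The labels held for the targeted gene. Upf3b had 11 to 24 counts in the KO libraries and 157 to 219 counts in the WT libraries, or 2.76 ± 0.877 CPM in KO (SD, n = 5) and 38.3 ± 2.48 CPM in WT (SD, n = 7), where CPM are counts scaled by the library's size. Its log2 fold change was -3.78 ± 0.13 (SE), with an adjusted p of 7.21e-11 by edgeR's quasi-likelihood test and p = 0.00253 by an exact permutation test (two-sided, on log2 CPM), the smallest that the 792 arrangements of the libraries can give. Library totals ran from 4990643 to 6617759 counts in KO and from 4684039 to 5425774 counts in WT, and 4 of the 5 KO libraries were deeper than every WT library. Depth and genotype can therefore not be fully told apart. Libraries KO 2 and WT 4 stood apart from the others of their groups, as described with the dopamine receptors, and results that rest on them are given with and without them. Markers of cortical excitatory neurons were present in every library, with summed levels over 9 genes of 942 to 1456 CPM in KO and 1099 to 1440 CPM in WT.

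Receptor genes that passed the test were all higher in KO, each by less than 2-fold. Of the 40 receptor genes 36 had enough counts to be tested, and 10 of these rose in KO at an edgeR adjusted p under 0.05, which is 27.8% of them. Over all 14274 tested genes 15.3% were called higher. No receptor gene was called lower, against 14.4% of all tested genes, and 1 receptor gene was lower at an unadjusted p under 0.05. The 10 genes called by edgeR included Chrna4, Adra1a, Chrm2, Htr1f, Htr2a, Chrna7, Chrna5, Chrnb2 and Hrh2. DESeq2 called 6 receptor genes higher, against 11.9% of all tested genes, namely Adra1a, Chrm2, Chrna4, Chrna5, Chrna7 and Htr2a, and also none lower. Htr1f, Hrh2 and Chrnb2 missed its threshold, with adjusted p values of 0.0537, 0.0536 and 0.0784.

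The median log2 fold change of the 36 tested receptor genes was 0.15, beside 0.03 over all tested genes, and became -0.02 when the library total was added to the fit. The sign was positive for 27 of the 36 genes and for 56.2% of all tested genes. In 3 receptor genes, Chrna4 and Adra1a among them, every KO library lay above every WT library, which held for 5.84% of all tested genes. No receptor gene had every KO library below every WT library, which held for 4.8% of all tested genes. When 1 library was left out, between 3 and 11 receptor genes were called higher, beside 11.1% to 17% of all tested genes. The count was 4 without KO 3, 3 without KO 4, 5 without KO 6, 4 without WT 3 and 4 without WT 5. Chrna4 and Adra1a passed in all 12 of these fits.

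**Figure D1:**
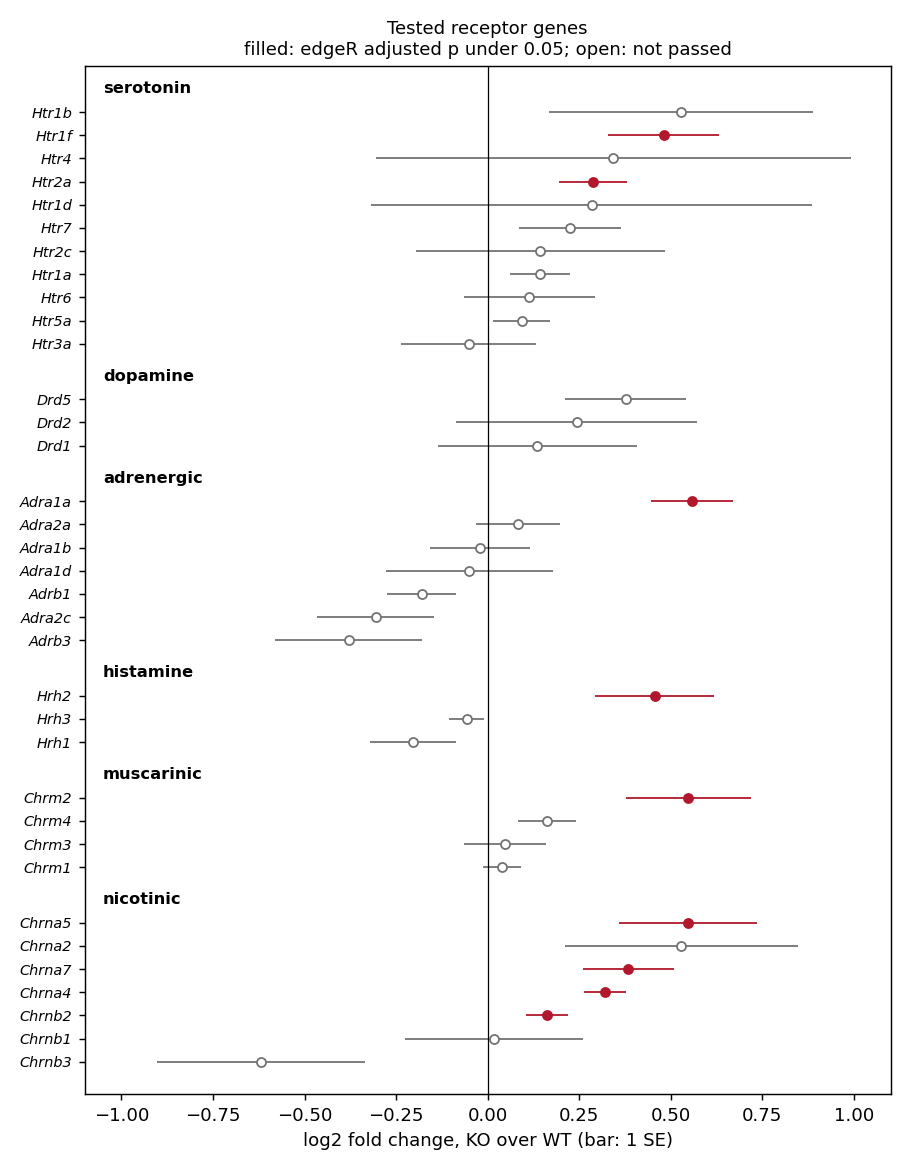
Log2 fold change, KO over WT, of 35 tested receptor genes by family (x axis), with bars of 1 SE from edgeR. Filled points are 9 genes with an adjusted p under 0.05, which all lie right of 0, and the widest bars belong to Htr4, Htr1d and Htr1b.

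Among the nicotinic receptor genes, 4 of 7 rose in KO, beside 15.3% of all tested genes. All 4 encode subunits of neuronal receptors. Chrna4 and Chrnb2 encode the subunits of the most abundant high-affinity nicotinic receptor of the brain, Chrna5 an accessory subunit that joins them, and Chrna7 the subunit of a receptor that needs no other. The median log2 fold change of the 7 genes was 0.32, and it was -0.02 with the library total in the fit. With the count density offsets described below, 1 of the 7 was called higher, beside 8.33% of all tested genes. Summed over the 7 genes, the level per kilobase of exon was 51.3 to 60.6 CPM per kb in KO (median 56.4) and 43.5 to 51.9 CPM per kb in WT (median 46.4), with KO 1 just below the highest WT library.

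These 4 genes each passed, and the 250 bases before their RefSeq transcription starts (GRCm38.p6) are shown in the direction of transcription. Capitals mark the GC box GGGCGG or its reverse complement CCGCCC, and the cAMP response element core TGACG or its reverse complement CGTCA. Both strands were searched, and none of the windows shown held both motifs. The windows are chr2:181039178-181039427 on the minus strand for Chrna4, chr7:63212527-63212776 on the minus strand for Chrna7, chr3:89764633-89764882 on the minus strand for Chrnb2, and chr9:54980630-54980879 and chr9:54981238-54981487 on the plus strand for the 2 starts of Chrna5.
Chrna4: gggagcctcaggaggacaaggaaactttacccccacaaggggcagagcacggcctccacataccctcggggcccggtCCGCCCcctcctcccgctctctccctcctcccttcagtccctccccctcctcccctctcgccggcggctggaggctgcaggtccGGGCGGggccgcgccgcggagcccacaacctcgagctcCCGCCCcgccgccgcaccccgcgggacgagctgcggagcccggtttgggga
Chrna7: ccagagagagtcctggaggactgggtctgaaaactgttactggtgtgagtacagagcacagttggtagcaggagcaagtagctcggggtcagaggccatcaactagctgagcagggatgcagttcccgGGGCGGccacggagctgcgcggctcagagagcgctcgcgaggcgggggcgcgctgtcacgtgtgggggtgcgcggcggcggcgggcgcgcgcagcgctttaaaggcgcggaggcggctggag
Chrnb2: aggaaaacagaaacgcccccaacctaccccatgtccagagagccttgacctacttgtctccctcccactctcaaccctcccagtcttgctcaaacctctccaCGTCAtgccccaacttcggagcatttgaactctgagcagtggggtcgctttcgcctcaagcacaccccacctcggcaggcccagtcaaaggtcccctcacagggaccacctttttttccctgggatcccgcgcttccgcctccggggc
Chrna5, first start: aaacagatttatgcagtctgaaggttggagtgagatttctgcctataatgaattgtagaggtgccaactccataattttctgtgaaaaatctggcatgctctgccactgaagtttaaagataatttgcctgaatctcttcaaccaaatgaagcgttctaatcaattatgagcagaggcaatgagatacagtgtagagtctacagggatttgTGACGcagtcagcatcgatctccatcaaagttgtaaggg
Chrna5, second start: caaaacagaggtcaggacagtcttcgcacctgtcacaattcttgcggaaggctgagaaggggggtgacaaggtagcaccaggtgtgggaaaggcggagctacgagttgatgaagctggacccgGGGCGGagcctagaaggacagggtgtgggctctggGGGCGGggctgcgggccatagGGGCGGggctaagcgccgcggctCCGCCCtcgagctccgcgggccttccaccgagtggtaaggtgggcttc
The GC box occurred 3 times before Chrna4, 1 time before Chrna7, 4 times before the second start of Chrna5, and in neither of the other 2 windows. TGACG occurred 1 time before Chrnb2 and 1 time before the first start of Chrna5. Of the 40 receptor genes 30 were matched in the RefSeq promoter table, with 39 windows. The GC box was found in 61.5% of these windows and in 32.7% of all 32851 promoters of the same length, and TGACG in 15.4% and 17.8%. By the gene positions given below, the windows of Chrna4 and of the second start of Chrna5 lie inside the annotated gene. That of Chrna7 lies partly inside its gene. A match is a description of the letters in these windows, and no binding was measured.

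Chrna4 had the smallest p of all receptor genes. Its level was 81.2, 81.7, 86.8, 90.0 and 86.3 CPM in KO 1, 2, 3, 4 and 6, against 59.7 to 74.6 CPM in WT (median 68.7). The groups did not overlap. Means were 85.2 ± 3.72 CPM in KO and 68.3 ± 5.81 CPM in WT (SD, n = 5 and 7), for a log2 fold change of 0.32 ± 0.06 (SE) and an edgeR adjusted p of 0.00130. Leaving out 1 library gave log2 fold changes of 0.28 to 0.34. The gene lies on chromosome 2 from 181018380 to 181043546 of mm10, on the minus strand (GENCODE M21, as for all positions below).

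Chrnb2, on chromosome 3 from 89746195 to 89764632 on the minus strand, had the smallest fold change of the genes that passed. Its level was 108, 132, 127, 117 and 113 CPM in the 5 KO libraries and 99.3 to 120 CPM in WT (median 104). KO 2 was the highest KO library and WT 4 the highest WT library, and 2 of the 5 KO libraries lay above every WT library. The means were 119 ± 9.83 CPM in KO and 107 ± 7.18 CPM in WT (SD), with a log2 fold change of 0.16 ± 0.06 and an edgeR adjusted p of 0.0443. It missed the threshold without KO 2, KO 3, KO 4, WT 1, WT 2, WT 3, WT 5 or WT 6, with adjusted p values up to 0.121, and its log2 fold change was -0.02 with the library total in the fit. The gene overlaps Adar on the opposite strand, and with the strand setting of the counting not given, reads of the 2 genes cannot be told apart. Adar itself had a log2 fold change of 0.0055 ± 0.034 (edgeR adjusted p = 0.920).

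Chrna5 and Chrna7 were higher with some overlap. Chrna5, on chromosome 9 from 54980880 to 55007779 on the plus strand, measured 9.61, 7.00, 10.4, 10.5 and 8.56 CPM in the KO libraries, against 3.17 to 8.12 CPM in WT (median 6.64). KO 2 was the lowest KO library and the only one inside the WT range, and WT 4 was the lowest WT library. The means were 9.20 ± 1.44 CPM in KO and 6.30 ± 1.70 CPM in WT (SD), for a log2 fold change of 0.55 ± 0.19 and an edgeR adjusted p of 0.0400. Without KO 1, KO 3, KO 4, KO 6, WT 3, WT 5, WT 6 or WT 7 this adjusted p was as high as 0.0999 and missed the threshold.

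Chrna7, on chromosome 7 from 63098692 to 63212569 on the minus strand, measured 20.7, 20.7, 24.8, 29.4 and 26.7 CPM in KO, against 14.9 to 24.0 CPM in WT (median 17.7). KO 3, KO 4 and KO 6 lay above every WT library. Its log2 fold change was 0.38 ± 0.13 (24.5 ± 3.81 CPM in KO and 18.8 ± 3.38 CPM in WT, SD), with an edgeR adjusted p of 0.0312. It missed the threshold without KO 3, KO 4, KO 6, WT 1, WT 2, WT 3 or WT 5, where the highest adjusted p was 0.101.

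The remaining 3 nicotinic genes did not pass. Chrnb3, an accessory subunit known from dopamine neurons, was the lowest of them by fold change. Its level was 2.86, 1.56, 3.99, 4.15 and 2.47 CPM in KO and 2.05 to 6.88 CPM in WT (median 4.28). KO 2 and WT 4 were the lowest library of their group. This gave a log2 fold change of -0.62 ± 0.28, with an edgeR adjusted p of 0.112, and -0.59 ± 0.22 (adjusted p = 0.0469) without KO 2 and WT 4. Chrna2, a subunit found in some interneurons, measured 0.614 to 3.89 CPM in KO and 0.856 to 2.52 CPM in WT, with a log2 fold change of 0.53 ± 0.32, and 0.74 without KO 1, where it passed (edgeR adjusted p = 0.0271). Chrnb1, a subunit of the muscle receptor, measured 1.64 to 4.20 CPM in KO and 2.08 to 3.87 CPM in WT, with a log2 fold change of 0.02 ± 0.24 that was negative in several of the other fits.

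**Figure D2:**
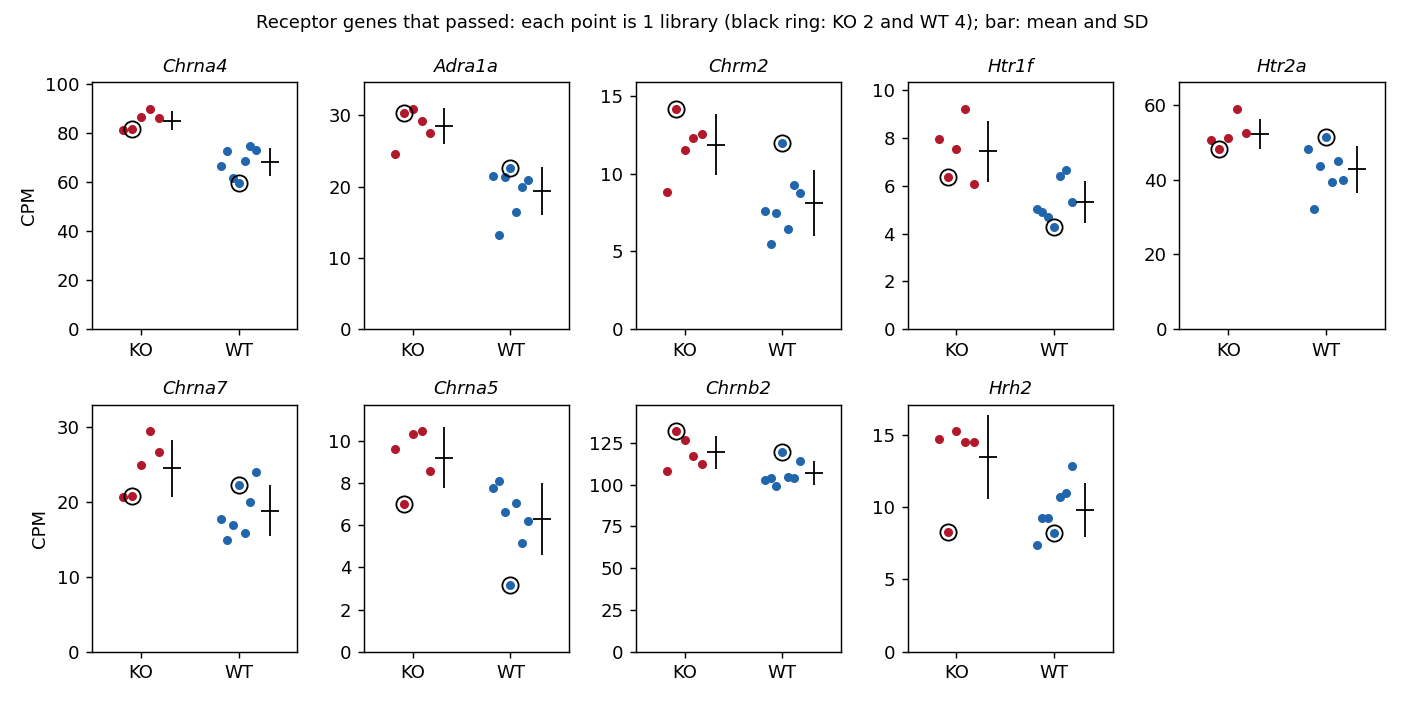
CPM of 9 receptor genes that passed, with 1 point per library, KO left of WT, and the mean and SD beside each group; the y axes start at 0. In Chrna4 and Adra1a every KO point lies above every WT point, and in Hrh2 the ringed library KO 2 lies apart from the other 4 KO libraries.

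Of the 4 muscarinic receptor genes 1 rose, beside 15.3% of all tested genes. It was the Gi-coupled Chrm2, whose product is known as a presynaptic autoreceptor. Its level was 8.80, 14.2, 11.5, 12.3 and 12.5 CPM in KO, against 5.47 to 11.9 CPM in WT (median 7.57). KO 2 and WT 4 were the highest libraries of their groups, and KO 4 and KO 6 were also above every WT library. The means were 11.9 ± 1.96 CPM in KO and 8.13 ± 2.12 CPM in WT (SD), for a log2 fold change of 0.55 ± 0.17 and an edgeR adjusted p of 0.0247. It missed the threshold without KO 2, KO 4, KO 6 or WT 5 (highest adjusted p 0.0605). Without both KO 2 and WT 4 it passed, at 0.59 ± 0.15 (adjusted p = 0.00768). Chrm2 lies on chromosome 6 from 36388084 to 36528414 on the plus strand. It overlaps a long noncoding RNA gene, 9330158H04Rik, on the opposite strand, whose reads cannot be told apart from its own without strand.

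Chrm4, a Gi-coupled receptor that is abundant in striatal neurons, did not pass. It measured 88.0, 94.7, 90.4, 86.3 and 92.0 CPM in KO, against 70.6 to 101 CPM in WT (median 76.4). The KO libraries lay close together, and only WT 4 and WT 7 reached them. Its log2 fold change was 0.16 ± 0.08 (edgeR adjusted p = 0.140). Without KO 2 and WT 4 it was 0.19 ± 0.06 (adjusted p = 0.0240). The Gq-coupled Chrm1, the main muscarinic receptor of cortical pyramidal neurons, measured 212 to 267 CPM in KO and 231 to 251 CPM in WT, and the Gq-coupled Chrm3 60.2 to 96.9 CPM in KO and 62.9 to 94.8 CPM in WT. KO 2 and WT 4 were the lowest library of their group in both genes. Their log2 fold changes were 0.04 ± 0.05 and 0.05 ± 0.11.

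The adrenergic receptor genes had fold changes of both signs, with a median log2 fold change of -0.04 over the 8 tested. Adra1a, a Gq-coupled alpha receptor, had the largest fold change of all receptor genes that passed. It measured 24.5, 30.3, 30.9, 29.2 and 27.5 CPM in KO, against 13.2 to 22.6 CPM in WT (median 21.0). The groups did not overlap, and WT 2 was the lowest WT library. The means were 28.5 ± 2.57 CPM in KO and 19.4 ± 3.37 CPM in WT (SD), for a log2 fold change of 0.56 ± 0.11 and an edgeR adjusted p of 0.00246. Leaving out 1 library gave 0.48 to 0.60. Adra1a lies on chromosome 14 from 66635251 to 66771168 on the plus strand.

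The 3 adrenergic genes with the most negative fold changes did not pass. Adrb1, the main beta receptor of cortical neurons, measured 42.5, 35.0, 47.6, 42.3 and 56.5 CPM in KO, against 45.2 to 58.2 CPM in WT (median 49.6). KO 1, KO 2 and KO 4 lay below every WT library, and KO 6 lay high in the WT range. Between the groups the log2 fold change was -0.18 ± 0.09 (edgeR adjusted p = 0.163). Without KO 6 it was -0.28 and passed (adjusted p = 0.0232).

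Adra2c, a Gi-coupled presynaptic receptor, measured 40.1, 39.2, 31.1, 33.4 and 43.6 CPM in KO, against 36.2 to 74.6 CPM in WT (median 42.2). WT 4 alone set the top of the WT range, and the next WT library was at 50.5 CPM. Its log2 fold change was -0.31 ± 0.16 (edgeR adjusted p = 0.164), and it was -0.16 without WT 4.

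Adrb3, a Gs-coupled receptor best known from fat tissue, measured 4.09, 4.36, 6.80, 2.92 and 4.12 CPM in KO, against 4.29 to 6.94 CPM in WT (median 6.42). KO 3 lay near the top of the WT range and KO 1, KO 4 and KO 6 below it. The log2 fold change was -0.38 ± 0.20 (edgeR adjusted p = 0.166), and without KO 3 it was -0.59 and passed (adjusted p = 0.0326). Adra1b, Adra1d and Adra2a had log2 fold changes of -0.02, -0.05 and 0.08, each smaller than its SE. Adra2b was too low to be tested, with 0 to 29 counts in KO and 2 to 26 counts in WT, and KO 2 and WT 4 held the highest counts.

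Of the 11 tested serotonin receptor genes 2 rose, beside 15.3% of all tested genes. The fold change was positive in 10 of the 11, beside 56.2% of all tested genes. The median log2 fold change was 0.22, and it was -0.07 with the library total in the fit. None of the 11 was called with the count density offsets described below, beside 8.33% of all tested genes called higher and 7.84% called lower. Htr2a, the Gq-coupled receptor of cortical pyramidal neurons at which classical hallucinogens act, measured 50.5, 48.1, 51.0, 58.9 and 52.4 CPM in KO, against 32.3 to 51.3 CPM in WT (median 43.7). KO 4 and KO 6 lay above every WT library, and WT 4 was the highest WT library. The means were 52.2 ± 4.08 CPM in KO and 42.8 ± 6.30 CPM in WT (SD), for a log2 fold change of 0.29 ± 0.09 and an edgeR adjusted p of 0.0289. It missed the threshold without KO 4, KO 6, WT 5 or WT 7 (highest adjusted p 0.0893). Htr2a lies on chromosome 14 from 74640840 to 74709494 on the plus strand.

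Htr1f, a Gi-coupled receptor on chromosome 16 from 64924729 to 65105854 on the minus strand, measured 7.98, 6.38, 7.54, 9.23 and 6.09 CPM in KO, against 4.29 to 6.67 CPM in WT (median 5.04). KO 1, KO 3 and KO 4 lay above every WT library. The means were 7.44 ± 1.27 CPM in KO and 5.34 ± 0.885 CPM in WT (SD), for a log2 fold change of 0.48 ± 0.15 and an edgeR adjusted p of 0.0266. It missed the threshold without KO 3, KO 4 or WT 3 (highest adjusted p 0.0884).

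Htr1b, a Gi-coupled receptor of axon terminals, had one of the largest fold changes without passing, at 0.53 ± 0.36 (edgeR adjusted p = 0.287). It measured 5.76 to 10.9 CPM in KO and 2.10 to 13.2 CPM in WT, and WT 4 alone set the top of the WT range, with the next WT library at 7.27 CPM. Without KO 2 and WT 4 the means were 6.84 ± 0.922 CPM in KO (SD, n = 4) and 3.93 ± 1.87 CPM in WT (SD, n = 6). The log2 fold change was then 0.79 ± 0.25, with an adjusted p of 0.0213. Of the WT libraries left in, WT 7 and then WT 6 were the highest for Htr1b. They were in the same order the highest for the summed striatum markers described below. That sum was 1864 CPM in WT 7, above the 1791 CPM in KO 2. Of the KO libraries left in, KO 1 was the highest for these markers and KO 4 for Htr1b. The part of striatal tissue in this fold change was not tested.

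The other 8 tested serotonin receptor genes did not pass. Htr1a, a Gi-coupled receptor of the cell body, measured 40.1 to 57.2 CPM in KO and 40.1 to 46.5 CPM in WT, and the Gi-coupled Htr5a 43.1 to 59.7 CPM in KO and 44.1 to 56.1 CPM in WT, with log2 fold changes of 0.14 ± 0.08 and 0.09 ± 0.08. The Gs-coupled Htr7 and Htr6 had log2 fold changes of 0.22 ± 0.14 and 0.11 ± 0.18, and the channel gene Htr3a, known from a class of cortical interneurons, of -0.05 ± 0.18. Htr7 was at 28.9 CPM in KO 2 and at 15.3 to 18.9 CPM in the other KO libraries, and its log2 fold change was 0.05 without KO 2 and 0.04 ± 0.11 without KO 2 and WT 4. Htr5b was too low to be tested, with 3 to 18 counts in KO and 6 to 13 counts in WT. Htr1d, Htr2c and Htr4 are described with the dopamine receptors, whose pattern over the libraries they shared.

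None of the 3 tested dopamine receptor genes passed. Drd5, a Gs-coupled receptor of cortical neurons, came nearest. It measured 7.16, 10.4, 11.5, 14.6 and 9.88 CPM in KO, against 6.16 to 9.67 CPM in WT (median 9.20). KO 2, KO 3, KO 4 and KO 6 lay above every WT library and KO 1 low in the WT range. The log2 fold change was 0.38 ± 0.17 (edgeR adjusted p = 0.0977). It was 0.48 without KO 1, where it passed (adjusted p = 0.0256), and 0.24 without KO 4 (adjusted p = 0.301). Drd4, a Gi-coupled receptor, was too low to be tested, with 1 to 13 counts in both groups.

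The other dopamine receptor genes were set apart by 1 library of each genotype. Drd1, the Gs-coupled receptor of striatal neurons of the direct pathway, measured 133 CPM in KO 2 and 68.0 to 85.1 CPM in the other KO libraries, against 168 CPM in WT 4 and 47.7 to 101 CPM in the other WT libraries. Drd2, the Gi-coupled receptor of the indirect pathway, measured 64.1 CPM in KO 2 and 28.1 to 42.0 CPM in the other KO libraries, against 70.3 CPM in WT 4 and 15.8 to 52.2 CPM in the other WT libraries. Drd3, a Gi-coupled receptor of the ventral striatum and its islands of Calleja, had 39 counts in KO 2, 26 counts in WT 4 and at most 4 counts in any other library, so it was not tested. In all 3 genes KO 2 and WT 4 were the highest libraries of their groups. The log2 fold changes of Drd1 and Drd2 were 0.14 ± 0.27 and 0.24 ± 0.33, each smaller than its SE. Without KO 2 and WT 4 they were 0.23 ± 0.15 and 0.30 ± 0.24. Leaving out KO 2 alone gave -0.05 for Drd1 and 0.02 for Drd2, and leaving out WT 4 alone gave 0.41 and 0.52, with no adjusted p under 0.05.

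Serotonin receptor genes shared this pattern. Htr4, a Gs-coupled receptor, was at 16.3 CPM in KO 2, against 16.4 CPM in WT 4, and at 1.84 to 5.23 CPM in the other KO libraries and 0.944 to 3.01 CPM in the other WT libraries. Htr1d, a Gi-coupled receptor, was at 17.7 CPM in KO 2, against 21.1 CPM in WT 4, and at 3.68 to 5.38 CPM in the other KO libraries and 1.70 to 6.63 CPM in the other WT libraries. Htr2c, the Gq-coupled receptor that is also strongly expressed in choroid plexus, was at 139 CPM in KO 2, against 154 CPM in WT 4, and at 48.2 to 59.9 CPM in the other KO libraries and 36.4 to 54.6 CPM in the other WT libraries.

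In all, 8 receptor genes were at least 1.5 times the median of the other libraries of their group in both KO 2 and WT 4, namely Adra2b, Drd1, Drd2, Drd3, Htr1b, Htr1d, Htr2c and Htr4. Of the 36 tested receptor genes 6 did this, against 2.16% of all tested genes. Adra1d, Chrnb3 and Drd4 were lower than the median of the others by at least the same factor in both libraries, as were 0.974% of all tested genes. The SEs of Htr4, Htr1d and Htr2c were 0.65, 0.60 and 0.34 on the log2 scale, which with that of Htr1b were the widest of the tested receptor genes. Their log2 fold changes of 0.34, 0.28 and 0.14 all became negative without KO 2, at -0.59 for Htr4, -0.40 for Htr1d and -0.25 for Htr2c. Without WT 4 they were 1.24, 1.15 and 0.52.

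Markers of some neighbouring tissues moved with these genes. The olfactory bulb list summed to 143 CPM in KO 2 and 149 CPM in WT 4, against 40.5 to 84.9 CPM in the other KO libraries and 39.6 to 47.3 CPM in the other WT libraries, and 7 of its 8 genes were at least 1.5 times the median of the others in both. The striatum list summed to 1791 CPM in KO 2 and 2214 CPM in WT 4, against 1127 to 1412 CPM in the other KO libraries and 958 to 1864 CPM in the other WT libraries, and 5 of its 13 genes reached that ratio. The thalamus and habenula list summed to 465.6 CPM in KO 2 and 327 CPM in WT 4, against 262 to 305 CPM in the other KO libraries and 254 to 296 CPM in the other WT libraries. The sum of the choroid plexus list did not follow Htr2c in WT. It was 328 CPM in KO 2 and 231 to 255 CPM in the other KO libraries. In WT it was 256 CPM in WT 4, the lowest WT library, and 267 to 410 CPM in the other WT libraries. Single genes differed from the sum, since 4 of the 11 choroid plexus genes reached the ratio of 1.5 in both KO 2 and WT 4. So did 5 of the 11 thalamus and habenula genes, beside 2.16% of all tested genes. The excitatory neuron list was at its lowest in KO 2 and WT 4, at 942 CPM in KO 2 and 1099 CPM in WT 4. The list of deep-layer cortical neurons went the other way. Its sum was at its highest in both libraries, at 986 CPM in KO 2 and 1134 CPM in WT 4. No marker of these lists was at 0 in every library. None of the 13 tested striatum markers and none of the 5 tested olfactory bulb markers was called between KO and WT. Their part in the receptor levels of the 2 libraries was not tested.

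**Figure D3:**
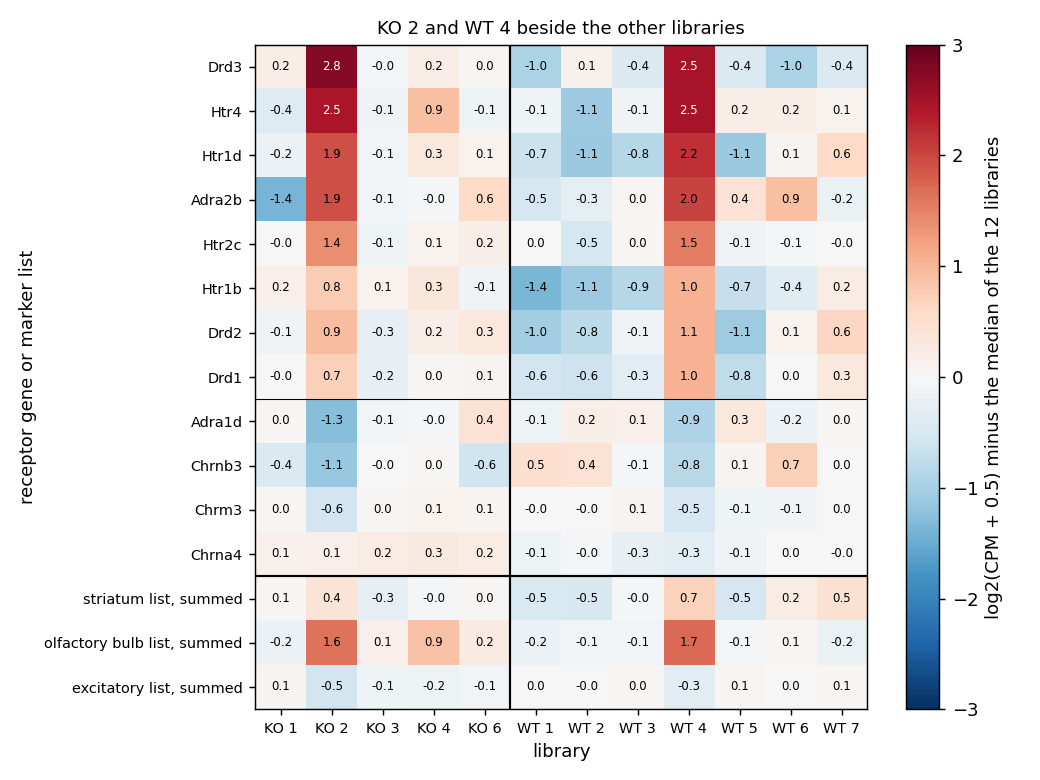
Level in each library, as log2(CPM + 0.5) minus the median of the 12 libraries (colour and number), for 12 receptor genes and 3 summed marker lists, KO libraries left of the black line and WT libraries right of it. KO 2 and WT 4 stand out in the top 8 genes and in the olfactory bulb list, while Chrna4 in the lowest receptor row is higher in the KO libraries.

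Of the 3 histamine receptor genes, the Gs-coupled Hrh2 rose. It measured 14.7, 8.25, 15.2, 14.5 and 14.5 CPM in KO, against 7.36 to 12.8 CPM in WT (median 9.25). KO 2 lay inside the WT range, and the other 4 KO libraries above every WT library. The means were 13.4 ± 2.92 CPM in KO and 9.79 ± 1.85 CPM in WT (SD), for a log2 fold change of 0.46 ± 0.16 and an edgeR adjusted p of 0.0456. Without KO 2 and WT 4 the log2 fold change was 0.54 ± 0.13 (adjusted p = 0.00463). Hrh2 passed without KO 2 or WT 7 and missed the threshold without any other single library, with adjusted p values up to 0.110. It lies on chromosome 13 from 54192129 to 54236180 on the plus strand and overlaps an antisense gene, Gm16578, whose reads cannot be told apart from its own without strand.

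Hrh1 and Hrh3 did not pass. Hrh1, a Gq-coupled receptor that promotes wakefulness, measured 25.8 to 33.8 CPM in KO and 24.1 to 45.1 CPM in WT, with a log2 fold change of -0.20 ± 0.12 (edgeR adjusted p = 0.201). Without KO 2 and WT 4 it was -0.30 ± 0.09 (adjusted p = 0.0226). Hrh3, a Gi-coupled presynaptic autoreceptor, measured 140 to 170 CPM in KO and 152 to 169 CPM in WT, with a log2 fold change of -0.06 ± 0.05.

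With KO 2 and WT 4 left out, 11 receptor genes rose and 2 fell, beside 15.2% of all tested genes called higher and 15.4% called lower. Of the 10 genes that passed with all libraries, 9 were among them. Htr1b and Chrm4 were called higher in addition, and Hrh1 and Chrnb3 were the 2 called lower.

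Per kilobase of exon, the receptor genes spanned a wide range of levels in the frontal cortex. Chrm4 had the highest level in KO, at 62.7 ± 2.31 CPM per kb in KO and 56.0 ± 8.06 CPM per kb in WT (SD), and Hrh3 was at 56.4 ± 4.31 CPM per kb in KO and 58.6 ± 2.19 CPM per kb in WT. The order of the 2 genes differed between KO and WT, and in WT they lay within 1 SD of each other. Chrm1 followed at 40.0 ± 3.61 CPM per kb in KO and 38.9 ± 1.02 CPM per kb in WT, then Adra1d at 30.9 ± 11.0 in KO and 31.9 ± 7.82 in WT. Drd1 was at 25.4 ± 7.06 CPM per kb in KO and 23.1 ± 12.1 CPM per kb in WT, within its own SD of Adra1d in both groups. Chrna4, at 18.7 ± 0.814 CPM per kb in KO and 15.0 ± 1.27 CPM per kb in WT, ranked 7 in KO and 10 in WT among the 40 genes. Drd4 was the lowest in both groups, at 0.289 ± 0.267 CPM per kb in KO and 0.378 ± 0.325 CPM per kb in WT.

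By coupling, 2 of 11 tested Gi-coupled, 2 of 8 Gq-coupled and 2 of 9 Gs-coupled receptor genes rose, as did 4 of 8 channel subunits, beside 15.3% of all tested genes. Median log2 fold changes were 0.16, 0.04, 0.22 and 0.24. These groups were not tested against each other. By gene structure, which bears on nonsense-mediated decay because that pathway marks stop codons that lie upstream of an exon junction, 3 of 15 tested genes with 1 coding exon and 7 of 21 with 2 or more coding exons rose, with medians of 0.14 and 0.16. GENCODE M21 annotates transcripts as decay targets in 3 receptor genes, Hrh2, Hrh3 and Htr7, of which Hrh2 rose. Counts were per gene, so such transcripts were not measured apart.

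Fold changes in these data were lower in densely counted genes, and most receptor genes were sparsely counted. With tested genes ranked by mean count per exonic base and split into 10 bins, the median log2 fold change was 0.25 in the lowest bin and -0.18 in the highest. The lowest 4 bins held 23 of the 36 receptor genes and 8 of the 10 that rose. In these 4 bins 15.4% to 25.9% of all genes were called higher, against 0.78% in the highest bin. Chrna4 and Chrnb2 lay in bin 6, where the median was 0.06 and 20.6% of genes were called higher.

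**Figure D4:**
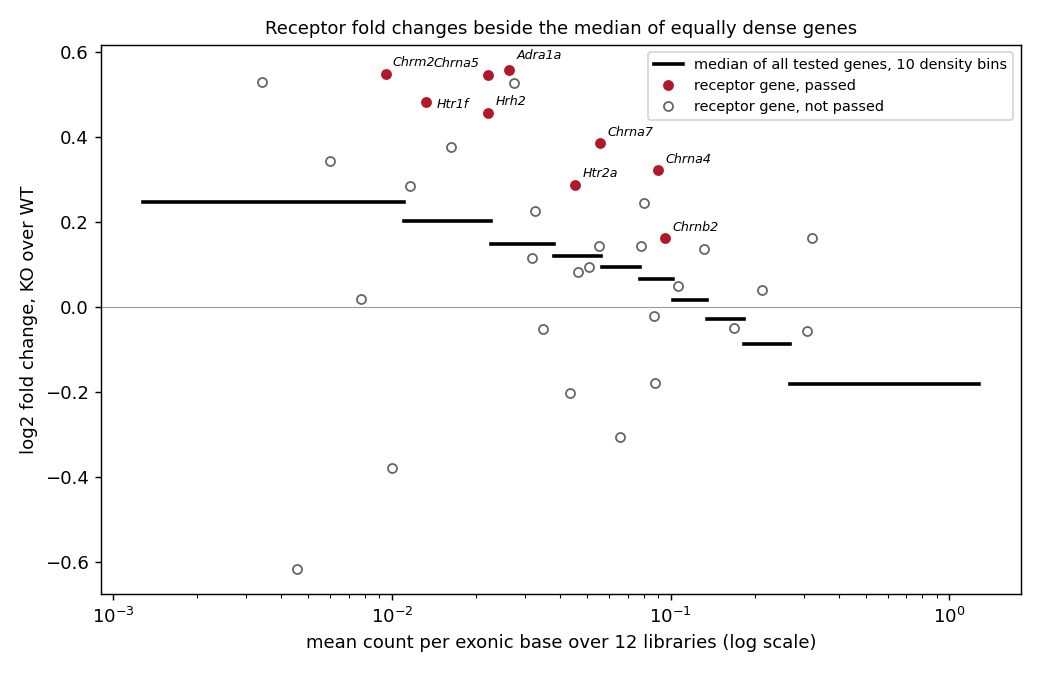
Log2 fold change, KO over WT, of 35 tested receptor genes (y axis) against its mean count per exonic base over the 12 libraries (x axis, log scale), with black bars for the median of all tested genes in each of 10 bins of count density. The black bars step down from 0.25 to -0.18, and the 9 filled points, receptor genes that passed, lie above them. Their place above the bars is largely set by their having passed as higher in KO.

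With offsets that removed this trend from each library, 3 receptor genes were called higher and none lower, beside 8.33% of all tested genes called higher and 7.84% called lower. Chrna4 stayed at 0.26 ± 0.06 (edgeR adjusted p = 0.00643) and Adra1a at 0.40 ± 0.10 (adjusted p = 0.0150). Chrm4, which is densely counted, passed in this fit at 0.32 ± 0.10 (adjusted p = 0.0361). The other 8 genes kept a positive fold change and missed the threshold, among them 0.38 for Chrna5, 0.33 for Chrm2, 0.30 for Hrh2, 0.29 for Htr1f, 0.28 for Chrna7, 0.17 for Htr2a and 0.11 for Chrnb2. At an unadjusted p under 0.05, 8 receptor genes were higher and 5 lower. With the offsets and without KO 2 and WT 4, 6 receptor genes rose (Adra1a, Chrm1, Chrm4, Chrna4, Chrna7 and Hrh2) and 2 fell (Chrnb3 and Hrh1), beside 8.9% and 7.41% of all tested genes.

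With the library total added to the fit as a covariate, no receptor gene was called in either direction, and over all tested genes 0.588% were called higher and 0.0771% lower. At an unadjusted p under 0.05, 4 receptor genes were higher and 0 lower. The log2 fold change of Chrna4 was 0.31 and that of Adra1a 0.37 in this fit, with SEs of 0.10 and 0.19. Chrm2 was at 0.09 ± 0.27 and Chrna7 at 0.16 ± 0.22, while Chrna5, Hrh2 and Htr1f were at 0.72, 0.64 and 0.64. Chrnb2 was the only one of the 10 genes to change sign.

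**Figure D5:**
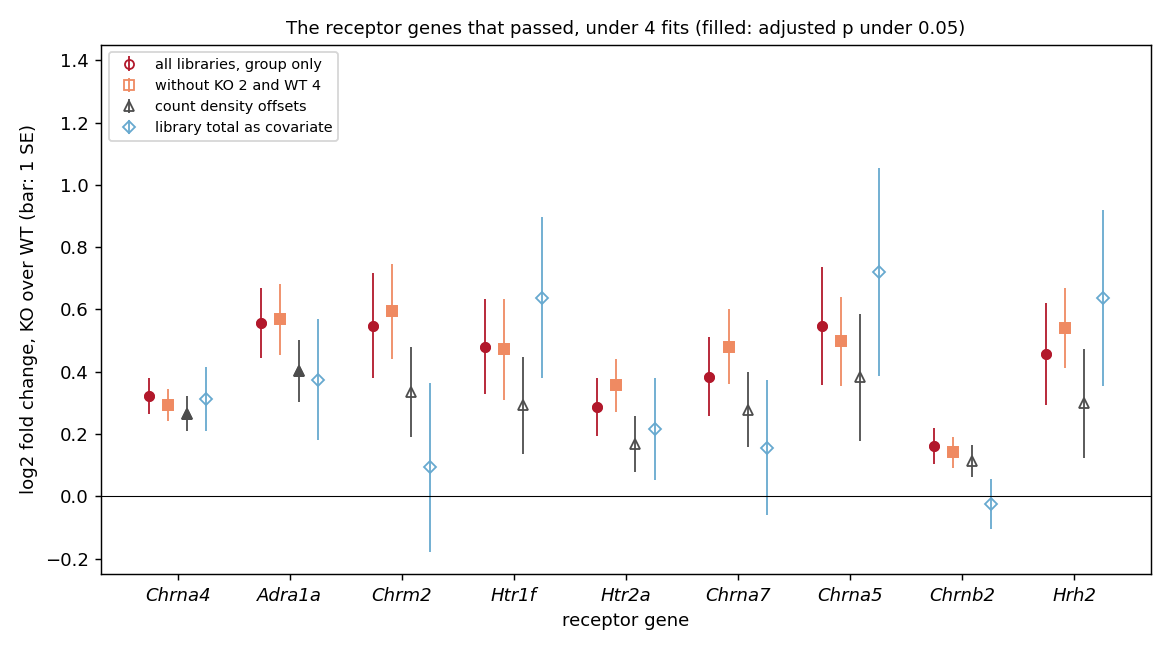
Log2 fold change, KO over WT, with bars of 1 SE, for 9 receptor genes that passed, in 4 edgeR fits: all libraries, without KO 2 and WT 4, with count density offsets, and with a term for the library total. Filled symbols have an adjusted p under 0.05; Chrna4 and Adra1a are filled in the first 3 fits, and no gene is filled in the fit with the library total, where Chrnb2 lies at -0.02.

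Among genes that make, move, break down or transduce these transmitters, 8 of 101 tested genes in 8 lists rose and 24 fell, beside 15.3% of all tested genes called higher and 14.4% called lower. The median log2 fold change of the 101 genes was -0.05. With count density offsets 7 rose and 7 fell, beside 8.33% and 7.84% of all tested genes, so both shares were then near those of all genes.

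Of the 8 lists, monoamine breakdown had the largest share of falls, with 5 of 7 genes lower, beside 14.4% of all tested genes. Hnmt, which inactivates histamine, had a log2 fold change of -0.22 ± 0.07, Aldh2, a dehydrogenase of monoamine aldehydes, of -0.14 ± 0.04, and the aldehyde reductase Akr1a1 of -0.19 ± 0.05. With density offsets 4 of the 7 were lower, and Akr1a1 was at 0.05. Of 10 microglial markers 7 fell, and their sums were 591 to 643 CPM in KO and 663 to 811 CPM in WT. Of 10 astrocyte markers 4 fell, and their sums were 2446 to 2891 CPM in KO and 2693 to 3171 CPM in WT. With density offsets 4 microglial markers and 1 astrocyte marker were lower, beside 7.84% of all tested genes. The part of glial cells in these enzyme levels was not tested.

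On the supply side, 1 of 11 tested genes of monoamine synthesis, storage and uptake was lower, beside 14.4% of all tested genes, and none was higher. Qdpr, which regenerates the cofactor of the monoamine hydroxylases, had a log2 fold change of -0.30 ± 0.04 (edgeR adjusted p = 4.86e-04), and -0.07 with density offsets. None of the 8 genes of acetylcholine synthesis, transport and breakdown passed. The 2 with the smallest p were Ache, acetylcholinesterase, at 84.4 ± 11.2 CPM in KO and 75.2 ± 4.93 CPM in WT (log2 fold change 0.17 ± 0.07, adjusted p = 0.0913), and Chat, choline acetyltransferase, at 11.7 ± 10.3 CPM in KO and 7.01 ± 6.27 CPM in WT. Chat was at 29.9 CPM in KO 2 and 5.32 to 10.4 CPM in the other KO libraries, against 20.7 CPM in WT 4 and 1.93 to 7.06 CPM in the other WT libraries. Of the 8 genes 4 were at least 1.5 times the median of the other libraries of their group in both KO 2 and WT 4. Without these libraries the log2 fold change of Ache was 0.08, with an edgeR adjusted p of 0.213.

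Among 9 tested chaperones and Ly6 proteins that act on nicotinic receptors 1 rose and 2 fell, beside 15.3% and 14.4% of all tested genes. Lypd1, which lowers nicotinic receptor function, had a log2 fold change of 0.29 ± 0.08, Ly6h, which limits surface nicotinic receptors, of -0.26 ± 0.06, and the retention factor Rer1 of -0.17 ± 0.05. None of these 3 passed with density offsets, at 0.18, -0.10 and -0.07. In that fit 1 other gene of the list was called higher and none lower, beside 8.33% and 7.84% of all tested genes.

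Of 11 G protein alpha subunits 5 fell and none rose, beside 14.4% of all tested genes called lower and 15.3% called higher. Gnai1 and Gnai2, of the Gi class, had log2 fold changes of -0.26 ± 0.05 and -0.18 ± 0.04, Gnas, of the Gs class, of -0.20 ± 0.06, and Gna11, of the Gq class, of -0.13 ± 0.04. With density offsets only Gnas of the 11 was lower, at -0.16 (edgeR adjusted p = 0.0393), beside 7.84% of all tested genes. Gnai2 was then at 0.0060 and Gna11 at 0.0023. Among the enzymes they control, 2 of 13 adenylyl cyclases and phospholipases C beta rose and 1 fell, beside the same 15.3% and 14.4%. Adcy6 was at 103 ± 3.93 CPM in KO and 83.3 ± 6.41 CPM in WT, a log2 fold change of 0.32 ± 0.05 (adjusted p = 8.37e-04), and passed with density offsets at 0.25. Adcy7 had a log2 fold change of 0.47 ± 0.14 and Plcb1 of -0.15 ± 0.05, and neither passed with density offsets.

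Of 23 receptor kinases, arrestins and RGS proteins 3 rose and 5 fell, beside 15.3% and 14.4% of all tested genes. RGS proteins speed the shut-off of G proteins. Rgs20 was at 47.0 ± 0.770 CPM in KO and 57.0 ± 2.95 CPM in WT, a log2 fold change of -0.28 ± 0.05 (edgeR adjusted p = 8.14e-04), and was -0.30 with density offsets. Rgs16 had a log2 fold change of 0.48 ± 0.12, and passed with density offsets at 0.36. Rgs4 and Rgs7 were at -0.26 ± 0.06 and -0.24 ± 0.06, and did not pass with density offsets.

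Of 19 receptor scaffolds and genes of DARPP-32 signalling 2 rose and 5 fell, beside 15.3% and 14.4% of all tested genes. Ppp1r9b (spinophilin), Dlg4 (PSD-95) and Caly (calcyon, a dopamine receptor-interacting protein) had log2 fold changes of -0.30 ± 0.07, -0.26 ± 0.05 and -0.17 ± 0.04, and Akap12, an anchor of protein kinase A, of 0.41 ± 0.09. With density offsets Dlg4 and Akap12 passed, at -0.10 and 0.29, while Ppp1r9b was at -0.04 and Caly at 0.03.

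Markers of vessels, where several adrenergic receptors are also expressed, included 4 of 13 genes that rose, beside 15.3% of all tested genes. Their summed level was 458 to 502 CPM in KO and 418 to 496 CPM in WT. With density offsets none was higher and 1 was lower, beside 8.33% and 7.84% of all tested genes. Markers of cortical interneurons included 1 gene that rose and 5 that fell of 16, beside 15.3% and 14.4% of all tested genes, and summed to 1486 to 1660 CPM in KO and 1500 to 1802 CPM in WT. Deep-layer cortical markers included none of 13 that passed, with sums of 910 to 986 CPM in KO and 826 to 1134 CPM in WT. The part of any of these cell types in the receptor levels was not tested.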

How the data were processed

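The authors deposited raw read counts, as whole numbers, for 14909 genes in each of 12 libraries. Per the submitters' processing notes, STAR and the mm10 build were used. For the version of STAR, the counting tool, its strand setting and any filter, nothing is given in the sources used here, so counts of overlapping genes are uncertain. Groups and mouse numbers came from the sample titles, and the numbers name separate mice.

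The whole table was fitted in R 4.3.3 by edgeR 4.0.16 (TMM factors, filterByExpr by group, quasi-likelihood test with no term but genotype, Benjamini-Hochberg adjustment at 0.05), a procedure tested on simulated data. The simulated counts had the same dispersion for all genes, no trend with count density and no deviating libraries. They therefore do not show how the procedure behaves with these features of the data. CPM use TMM-scaled library sizes. The permutation test used a pseudocount of 0.5 CPM. Library totals of 4684039 to 6617759 counts limit precision for genes with few counts.

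Lengths came from RefSeq transcripts and positions from GENCODE M21. Alternatives were DESeq2 size factors, the Wald test of DESeq2 1.42.0, a block for mouse number, leaving out each library or both KO 2 and WT 4, no filter or at least 1 CPM in 5 libraries, a covariate for the log2 library total, and offsets per gene and library from a lowess fit (span 0.3) of log counts on count per exonic base. Offsets together with leaving out KO 2 and WT 4 were added after seeing the data. The receptor genes, the pathway and marker lists and these alternatives were chosen with earlier results of these data known. Named genes are Upf3b, the receptor genes that passed and the 6 of smallest p that did not, with values in every library, and up to 4 passing members of each pathway list by smallest p, or 2 where none passed; some genes this rule names are not reported here, but are kept in the counts. Other receptor genes are given by level, range or count.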

Additional observations from a re-analysis of the deposited data

Results flagged for a closer look

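Single libraries far from the rest of their group were looked for in the 82 groups of values given by the 40 receptor genes and Upf3b in KO and in WT, with a criterion that chance meets in about 1 in 20 groups. It was met 19 times, 10 times by KO 2 and 9 times by WT 4, and by no other library.

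Libraries KO 2 and WT 4 were both far above the rest of their group in 4 genes. Drd3 was at 6.07 CPM in KO 2 (0.444 to 0.615 CPM in the other KO libraries), against 4.85 CPM in WT 4 (at most 0.566 CPM in the other WT libraries). Htr4 was at 16.3 CPM in KO 2, against 16.4 CPM in WT 4, Htr1d at 17.7 CPM in KO 2, against 21.1 CPM in WT 4, and Htr2c at 139 CPM in KO 2, against 154 CPM in WT 4.

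Both libraries were below the rest in the Gq-coupled muscarinic receptor genes. Chrm1 was at 212 CPM in KO 2 (253 to 267 CPM in the other KO libraries), against 231 CPM in WT 4 (243 to 251 CPM in the other WT libraries). Chrm3 was at 60.2 CPM in KO 2 (91.8 to 96.9 CPM in the other KO libraries), against 62.9 CPM in WT 4 (82.2 to 94.8 CPM in the other WT libraries).

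In 4 genes the criterion was met in KO only, each time by KO 2. It was high in Drd1, at 133 CPM (WT 4, at 168 CPM, was the highest WT library without meeting the criterion), and Htr7, at 28.9 CPM, and low in Adra1b, at 38.6 CPM (57.5 to 59.5 CPM in the others), and Hrh2, at 8.25 CPM (14.5 to 15.2 CPM in the others). In 3 alpha receptor genes it was met in WT only, each time by WT 4, namely Adra2a, at 41.6 CPM (25.9 to 30.0 CPM), Adra2b, at 4.85 CPM (0.420 to 1.94 CPM; KO 2, at 4.51 CPM, was the highest KO library), and Adra2c, at 74.6 CPM (36.2 to 50.5 CPM).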

How the results depend on the processing

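Over the 10 receptor genes that passed, the sign was kept in every setting except that Chrnb2 was -0.024 with the library total as a covariate. A filter of 1 CPM in 5 libraries left all 61 named genes on the same side of the threshold; DESeq2 size factors made Chrnb1 -0.00021, the DESeq2 Wald test made it -0.0052 and called 6 receptor genes higher.

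With the mouse number as a replicate block, 3 receptor genes (Adra1a, Chrna4 and Chrna7) and 4 pathway genes were higher, 12 pathway genes lower, 1129 genes (7.91%) higher and 1186 (8.31%) lower over all, and Adra1d was 0.019. Whether equal numbers pair the mice is not given in the sources used here. Deviations of same-numbered libraries correlated at 0.141, -0.376, -0.048, -0.075 and 0.039, and KO 2 correlated best with WT 4. Such correlations of expression cannot show whether the mice were paired.

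Without KO 2 and WT 4, 11 receptor genes were higher and 2 lower. Of the pathway genes 13 were higher and a larger number lower, beside 15.2% and 15.4% of all tested genes. Adra1d was at 0.019, Chrnb1 at -0.096 and Htr3a at 0.078. Count density offsets gave 3 receptor genes higher, 7 pathway genes lower, 1176 genes higher and 1106 lower over all, and turned Adra2a (-0.037), Chrnb1 (-0.21), Hrh3 (0.091), Htr5a (-0.020), Htr6 (-0.023), Akr1a1 (0.049), Gnai2 (0.0060), Gna11 (0.0023) and Caly (0.028). Both together gave 6 receptor genes higher and 2 lower, 7 pathway genes lower, and 1253 genes higher and 1044 lower over all, with Adra1d at 0.085, Adra2a at -0.019, Chrnb1 at -0.29, Hrh3 at 0.099, Htr7 at -0.092 and Akr1a1 at 0.045.

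The library total as a covariate left 0 receptor and 0 pathway genes called (4 receptor genes higher at an unadjusted p under 0.05 by edgeR; DESeq2 without it called 6), 84 genes higher and 11 lower over all, and a receptor median of -0.017. It turned Adra1b (0.17), Adra1d (0.36), Adra2a (-0.11), Chrna2 (-0.77), Chrnb1 (-0.62), Drd1 (-0.40), Drd2 (-0.40), Drd5 (-0.0096), Hrh3 (0.084), Htr1a (-0.075), Htr1b (-0.19), Htr1d (-1.54), Htr2c (-0.70), Htr4 (-1.99), Htr7 (-0.055), Akr1a1 (0.041), Chat (-0.73) and Gnas (0.045). Since most KO libraries were deeper, depth and genotype cannot be told apart by this fit; the cause of the other changes was not tested.

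Leaving out 1 library at a time gave 3 to 11 receptor genes higher and 0 to 2 lower, and 7 to 14 pathway genes higher and 15 to 25 lower. Over all tested genes these fits called 11.1% to 17% higher and, rounded, 11% to 17% lower. Ranges that crossed 0 were -0.12 to 0.081 for Adra1b, -0.22 to 0.14 for Adra1d, -0.028 to 0.16 for Chrm3, -0.12 to 0.15 for Chrnb1, -0.053 to 0.41 for Drd1, -0.40 to 1.15 for Htr1d, -0.25 to 0.52 for Htr2c, -0.26 to 0.072 for Htr3a and -0.59 to 1.24 for Htr4. Depth limited Adra2b, Drd3, Drd4 and Htr5b, which had too few counts to be tested.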

Other observations

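Ratios between receptor genes within a library are not affected by scaling to the library total. The level of Chrna4 over that of Chrnb2, both per kilobase of exon, was 1.05, 0.867, 0.960, 1.08 and 1.07 in KO 1, 2, 3, 4 and 6, against 0.700 to 1.01 in WT (median 0.910). KO 2 and WT 4 had the lowest ratio of their group, and KO 1, KO 4 and KO 6 lay above every WT library. The ratio of the accessory subunit gene Chrna5 to Chrna4 was 0.208 to 0.290 in KO (median 0.283) and 0.129 to 0.283 in WT (median 0.250), with KO 2 and WT 4 again the lowest of their group.

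Drd1 over Drd2 per kilobase of exon was 1.46 to 1.85 in KO (median 1.53) and 1.40 to 2.41 in WT (median 1.73), and KO 2 and WT 4 lay inside the range of the other libraries of their group. Htr1a over Htr2a was 0.992 to 1.30 in KO (median 1.21) and 0.977 to 1.76 in WT (median 1.29). None of these ratios was tested.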
